A study of Mus musculus with 26 samples.

Results

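The stathmins Stmn1, Stmn2, Stmn3 and Stmn4, the tau gene Mapt, the doublecortin gene Dcx and the tubulin genes Tuba1a, Tubb2a, Tubb2b and Tubb5 were followed while mouse embryonic stem (ES) cells became spinal motor neurons in culture. The 10 genes were taken by symbol from the RNA table of the series. Each symbol had 1 row, so that 10 of 37450 gene IDs were used and no symbol was repeated. In build GRCm38 they lie on chromosomes 4 (Stmn1), 3 (Stmn2), 2 (Stmn3), 14 (Stmn4), 11 (Mapt), X (Dcx), 15 (Tuba1a), 13 (Tubb2a and Tubb2b) and 17 (Tubb5). RNA came from 1 library on each of days 0, 4, 5 and 6, and no difference between days has a replicate check. The day 0 library was labelled ES cells of the HBG3 line, with no added factor listed. The day 4 library was labelled motor neuron progenitors of the HBG3 line, which had received on day 2 retinoic acid (RA, 1 uM) together with the Hedgehog pathway activator SAG (0.25 uM). The libraries of days 5 and 6 were labelled postmitotic motor neurons of the iCre line, given RA and SAG in the same way and in addition 5 uM DAPT, which blocks Notch signalling, on day 4 for the day 5 library and on days 4 and 5 for the day 6 library. Another label field names Ainv15 cells for all 4 libraries. The field that gives the additions thus names a change of line between days 4 and 5, which the other field does not show. The step from day 4 to day 5 holds the addition of DAPT and, if the first field is right, a change of line, and these cannot be told apart from time.

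Microtubules are hollow polymers of alpha and beta tubulin dimers, and a growing axon depends on their assembly. Stathmins bind free tubulin dimers and promote disassembly. Stmn1 is cytosolic and also abundant in many dividing cells, while Stmn2, Stmn3 and Stmn4 carry a membrane-anchoring extension and are known as neuronal forms. Tau binds along axonal microtubules, and doublecortin binds the microtubules of young migrating neurons and is a marker of them. Among the tubulins, Tuba1a and Tubb2b are known as the isotypes of developing neurons, Tubb2a is a close relative of Tubb2b, and Tubb5 is used by many cell types.

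Of the 10 genes, 5 had an entry among the RefSeq promoter sequences used here (build GRCm38.p6), namely Stmn3, Dcx, Tuba1a, Tubb2a and Tubb5. They are shown because day 5 exceeded day 4 by 2-fold or more for 4 of these genes and not for Tubb5. Each line holds the 250 bases before the start of transcription, 5′ to 3′ on the gene's own strand, which is the minus strand in all 5 cases. The windows are chr2:181314501-181314750 for Stmn3, chrX:143933220-143933469 for Dcx, chr15:98953502-98953751 for Tuba1a, chr13:34078009-34078258 for Tubb2a and chr17:35838302-35838551 for Tubb5. Capitals mark the motifs searched.
Stmn3: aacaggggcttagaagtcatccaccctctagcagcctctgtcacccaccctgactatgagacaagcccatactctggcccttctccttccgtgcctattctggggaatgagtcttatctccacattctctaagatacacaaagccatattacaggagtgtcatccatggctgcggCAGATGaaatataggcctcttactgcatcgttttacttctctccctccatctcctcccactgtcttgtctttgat
Dcx: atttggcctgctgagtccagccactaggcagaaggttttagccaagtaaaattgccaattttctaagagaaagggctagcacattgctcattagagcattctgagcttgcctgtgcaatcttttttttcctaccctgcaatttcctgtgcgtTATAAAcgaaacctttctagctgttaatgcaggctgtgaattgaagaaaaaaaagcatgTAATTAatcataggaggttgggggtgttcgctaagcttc
Tuba1a: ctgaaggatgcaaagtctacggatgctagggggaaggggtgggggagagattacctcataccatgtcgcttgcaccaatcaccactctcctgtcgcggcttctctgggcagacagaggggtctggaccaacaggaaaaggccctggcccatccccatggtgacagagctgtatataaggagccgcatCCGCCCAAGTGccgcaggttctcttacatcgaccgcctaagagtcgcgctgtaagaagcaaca
Tubb2a: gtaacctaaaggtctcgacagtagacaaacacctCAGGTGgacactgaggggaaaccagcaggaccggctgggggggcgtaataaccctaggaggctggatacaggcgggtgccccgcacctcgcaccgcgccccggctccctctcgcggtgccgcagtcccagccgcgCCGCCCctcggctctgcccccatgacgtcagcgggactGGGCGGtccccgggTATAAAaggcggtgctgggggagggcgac
Tubb5: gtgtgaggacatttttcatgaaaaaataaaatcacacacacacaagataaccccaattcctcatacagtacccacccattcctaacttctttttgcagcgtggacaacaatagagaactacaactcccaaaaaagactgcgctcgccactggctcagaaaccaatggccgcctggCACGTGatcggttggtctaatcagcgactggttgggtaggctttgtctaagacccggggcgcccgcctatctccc
The motifs were TATAAA, the E-box CANNTG with its form CAGATG, the homeodomain letters TAATTA and ATTGAT, and the GC box GGGCGG, on both strands. They were counted in windows of 300 bases that run on for 50 bases after the start, and each share that follows is of all 32851 promoters of that length. The TATA box letters TATAAA began 29 bases before the start of Tubb2a and 98 bases before the outer of the 2 listed starts of Dcx, and 13.6% of all promoters held them. TAATTA, the core letters of many homeodomain sites, was found in the Dcx promoter, where it began 39 bases before the start, and in 5.29% of all promoters. CAGATG was found in the Stmn3 promoter, 75 bases before the start, and in 17.2% of all promoters. It is also an instance of CANNTG, which 72.3% of all promoters held, among them those of Stmn3, Tuba1a, Tubb2a and Tubb5. GGGCGG, which binds Sp1 in many promoters, had 2 matches in each of Tubb2a and Tubb5 and 1 in Tuba1a, against a share of 35.7%. In Tuba1a it shared 1 base with the E-box, and in Tubb5 neither match lies wholly before the start, so none is marked in the line shown. ATTGAT was in none of the 5 windows and in 7.54% of all promoters. None of the 6 motifs was present in all 4 promoters of the genes that were higher on day 5. A match describes letters and not a bound site.

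RNA levels are given as FPKM, fragment numbers divided by gene length and by the size of the library, a scale on which genes can be compared with each other. Among the stathmins, Stmn1 had 30.0, 78.7, 122 and 276 FPKM on days 0, 4, 5 and 6. Stmn2, known for its part in the growth and maintenance of motor axons, had 28.0, 3.59, 70.8 and 167 FPKM on days 0, 4, 5 and 6. Stmn2 was thus lowest in progenitors, while Stmn1 was lowest in ES cells and highest on day 6. Stmn3 had 1.67, 7.63, 82.8 and 260.0 FPKM on days 0, 4, 5 and 6. Stmn4 was listed at 0 on day 0 and had 0.697, 15.4 and 49.0 FPKM on days 4, 5 and 6. Stmn3 was below Stmn2 on day 0 and above it on each later day, while Stmn4 was the lowest of the 4 stathmins on every day.

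Tau RNA (Mapt) had 3.26, 0.907, 15.8 and 64.0 FPKM on days 0, 4, 5 and 6. Dcx had 0.012, 2.67, 66.0 and 145 FPKM on days 0, 4, 5 and 6. Mapt shared its low point on day 4 with Stmn2, and the remaining 8 genes had their low point on day 0.

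The most abundant of the 10 genes were tubulins. Tuba1a had 46.8, 152, 759 and 1512 FPKM on days 0, 4, 5 and 6. By level it was in place 706 among 36612 symbols on day 0 and in place 7 on day 6. Tubb2b had 29.6, 72.2, 291 and 653 FPKM on days 0, 4, 5 and 6, which put it in place 13. Tubb2a had 6.81, 12.0, 35.5 and 136 FPKM on days 0, 4, 5 and 6. Tubb5 was high throughout, at 289, 526, 572 and 745 FPKM on days 0, 4, 5 and 6.

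The order of levels changed with time. On day 0 Tubb5 led by 6.18 times over Tuba1a, the next gene, and on day 4 by 3.47 times. On days 5 and 6 Tuba1a led, by 1.33 and 2.03 times over Tubb5. Some neighbours were close: Stmn1, Tubb2b and Stmn2 on day 0 were within 1.06 times of the next, as were Stmn1 and Stmn3 on day 6, Dcx and Tubb2a on day 6, and Mapt and Stmn4 on day 5. With 1 library per day the spread of these levels is not known. Summed over the 10 genes, FPKM came to 435, 856, 2030.5 and 4007 on days 0, 4, 5 and 6, or 0.208%, 0.336%, 1.05% and 2.07% of all FPKM.

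**Figure D1:**
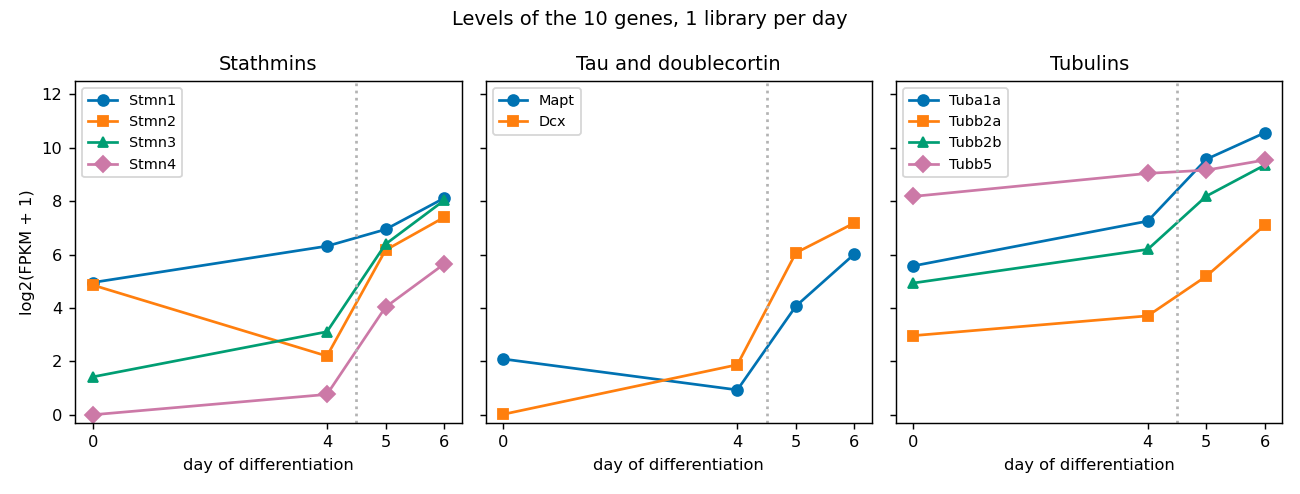
RNA level, as log2(FPKM + 1), of the 4 stathmins, tau and doublecortin, and the 4 tubulins against the day of differentiation, 1 library per point. The dotted line stands between the libraries labelled HBG3 and those labelled iCre in the field that gives the additions. Stmn2 and Mapt are lowest on day 4, Tubb5 is the flattest line, and all 10 genes are highest on day 6.

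Differences between days were taken on the scale of log2(FPKM + 1), which understates the change of low genes. A gene is called higher or lower from a 2-fold difference on, and only genes that reached 1 FPKM in at least 1 of the libraries compared were measured. From ES cells to progenitors, 5 of 9 measured genes were higher on day 4 and 2 were lower. Over all 11442 genes, 31.2% were called, 19.3% as higher and 11.9% as lower. The higher genes were Dcx (a log2 difference of 1.86, or 4.63 with 0.1 added in place of 1 FPKM, since it was near 0 on day 0), Stmn3 (1.69), Tuba1a (1.68), Stmn1 (1.36) and Tubb2b (1.26). The lower genes were Stmn2 (-2.66), below which only 1.89% of all genes lay, and Mapt (-1.16). Tubb5 (0.86) and Tubb2a (0.74) were within 2-fold. Stmn4 stayed below 1 FPKM in both libraries and was not measured. The median of the 9 genes was 1.26, beside 0.23 over all genes. The libraries differed by a median log2 ratio of 0.24, and relative to it the same 5 genes were higher and the same 2 lower, with a median of 1.02. Over all genes this rescaling left 14.0% higher and 14.8% lower, and the share of higher genes among those called was 48.6%, beside 62.0% without it. Fewer cells of a type and less RNA per cell cannot be told apart in such bulk libraries.

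From progenitors to the first day labelled postmitotic, 8 of 10 genes were higher on day 5 and none lower, beside 26.2% of all 11292 genes called, 11.5% as higher and 14.7% as lower. The median of the 10 was 2.73 on the log2 scale, beside -0.11 over all genes. Dcx (4.19), Stmn2 (3.97), Stmn3 (3.28), Stmn4 (3.27) and Mapt (3.14) had larger differences than nearly all other genes, with Mapt, the lowest of these 5, above 99.4% of them. The differences of Mapt and Stmn4 rest on day 4 values under 1 FPKM and were 3.98 and 4.28 with 0.1 added in place of 1 FPKM. Both genes were measured in this step through their day 5 values alone. Without Stmn4, 7 of 9 genes were higher, with a median of 2.32. Of the genes above 1 FPKM on both days, Dcx was 24.8 times, Stmn2 19.7 times and Stmn3 10.9 times as high in FPKM on day 5 as on day 4. The tubulins differed less, with Tuba1a at 2.32, Tubb2b at 1.99 and Tubb2a at 1.49. Stmn1 (0.63) and Tubb5 (0.12) were within 2-fold. Dividing cells are also known to use both of these genes, and whether that bears on their values was not tested. On day 0 each was the most abundant member of its family among the 10. Stmn1 (30.0 FPKM) was then close to Stmn2 (28.0 FPKM). The libraries differed by a median log2 ratio of -0.15, and relative to it the same 8 genes were higher. Over all genes this rescaling gave 13.7% higher and 12.1% lower.

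From day 5 to day 6, both labelled iCre, 8 of 10 genes were again higher and none lower, beside 12.7% of all 11113 genes called, 6.52% as higher and 6.19% as lower. The order among the genes was another one. Mapt (1.95 on the log2 scale) and Tubb2a (1.91) had the largest differences, at 4.06 and 3.84 times their day 5 FPKM. Stmn3 (1.64) and Stmn4 (1.61) followed, and then Stmn2 (1.23), Stmn1 (1.17), Tubb2b (1.16) and Dcx (1.12). Tuba1a (0.99) lay just under the 2-fold line, at 1512 FPKM on day 6 against 759 on day 5, and passed it at 1.08 once the libraries were rescaled to a common median ratio. Tubb5 (0.38) was within 2-fold in each of the 3 steps. The median of the 10 genes was 1.20, beside -0.07 over all genes.

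**Figure D2:**
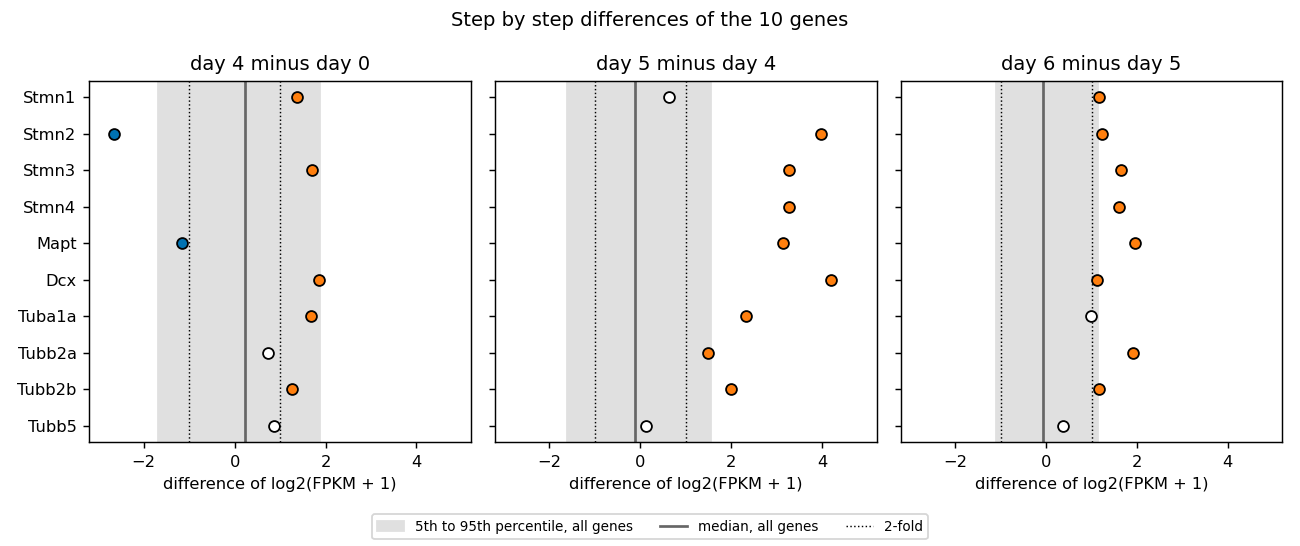
Difference of log2(FPKM + 1) of each gene in each step, later day minus earlier day. Orange points are at least 2-fold higher, blue points at least 2-fold lower and open points within 2-fold. The grey band spans the 5th to the 95th percentile of all genes measured, and Stmn4 has no point in the first step. In the step to day 5, 7 genes lie right of the band, whose upper end is at 1.56.

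Across the whole course all 10 genes were higher on day 6 than on day 0, beside 49.7% of all 12020 genes called, 26.0% as higher and 23.7% as lower. Stmn4, listed at 0 on day 0, has no fold. The other log2 differences ran from 1.36 for Tubb5 and 2.53 for Stmn2 to 6.61 for Stmn3 and 7.17 for Dcx, which were 7.20 and 10.34 with 0.1 added in place of 1 FPKM. The labelled protocol names another line for each of these libraries too. Of the FPKM gained between day 4 and day 6, 44.6% was present on day 5 for both Dcx and Tuba1a, 41.1% for Stmn2 and 37.6% for Tubb2b. The share was 18.9% for Tubb2a, 21.3% for Tubb5, 22.0% for Stmn1 and 23.6% for Mapt. Stmn3 and Stmn4 lay between, at 29.8% and 30.3%. Every gene thus gained more FPKM from day 5 to day 6 than from day 4 to day 5, which must hold for any gene called higher on day 6. On the log2 scale the step to day 5 was the larger for all but Stmn1, Tubb2a and Tubb5.

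The make-up of each family was set from FPKM summed over its genes. The 4 stathmins together came to 59.7, 90.6, 291 and 752 FPKM on days 0, 4, 5 and 6. Stmn1 made up 50.2% of this on day 0, 86.8% on day 4, 41.9% on day 5 and 36.7% on day 6. Stmn2 made up 47.0%, 3.97%, 24.3% and 22.2% on the same days, and Stmn3 2.80%, 8.42%, 28.5% and 34.6%. In progenitors the stathmin RNA was thus mostly Stmn1, and on day 6 Stmn1 and Stmn3 held nearly equal shares.

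For alpha tubulin, 7 genes were summed, which gave 200, 386, 839 and 1608 FPKM on days 0, 4, 5 and 6. Tuba1a made up 23.4% on day 0, 39.3% on day 4, 90.5% on day 5 and 94.0% on day 6. Tuba1b, a widely used alpha isotype, led on day 0 at 46.6% and on day 4 at 53.6%, and held 6.03% on day 5 and 3.03% on day 6. Its own level was 50.6 FPKM on day 5 against 207 on day 4, a log2 difference of -2.01. The genes Tuba1a, Tuba1b and Tuba1c have near-identical coding sequences, so reads may be split between them in a way that the files do not show. Their sum was 2.18 times as high on day 5 as on day 4 and 1.92 times as high on day 6 as on day 5, against 5.01 and 1.99 times for Tuba1a alone.

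For beta tubulin, Tubb3 had no row under that name among the values used here and was not analysed, so the shares are of the 7 other genes. Their sum was 525, 739, 953 and 1594 FPKM on days 0, 4, 5 and 6. Tubb5 made up 55.0% on day 0, 71.2% on day 4, 60.1% on day 5 and 46.7% on day 6. Tubb2b made up 5.64%, 9.78%, 30.5% and 41.0% on these days, and Tubb2a 1.30%, 1.63%, 3.73% and 8.56%. Tubb4b, another widely used isotype, made up 34.5% on day 0 and 13.3%, 4.44% and 2.83% on days 4, 5 and 6. Tubb2a and Tubb2b are also near-identical in coding sequence. Their sum was 3.87 times as high on day 5 as on day 4 and 2.42 times as high on day 6 as on day 5. Within the pair Tubb2a held 18.7% on day 0, 14.3% on day 4, 10.9% on day 5 and 17.3% on day 6.

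**Figure D3:**
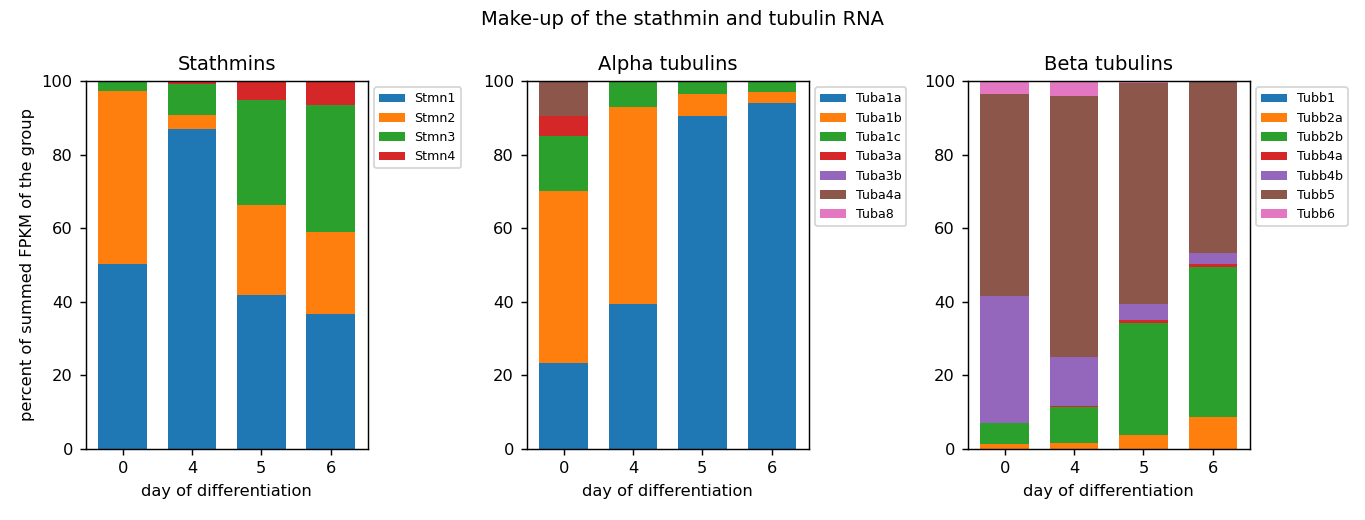
Percent of the summed FPKM of the 4 stathmins, of 7 alpha tubulins and of 7 beta tubulins, without Tubb3, that each gene held on each day, 1 library per bar. Tuba1a fills 23.4% of the alpha bar on day 0 and 94.0% on day 6, and Stmn1 fills 86.8% of the stathmin bar on day 4.

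The genes most like each of the 10 were found by the Euclidean distance between courses of log2(FPKM + 1), each centred on its own mean over the 4 libraries, among 12553 genes that reached 1 FPKM. Since 1 FPKM is added, a gene near 0 on day 0 can lie close to an abundant gene whose fold in FPKM is much smaller. Stmn2 had the largest distance of the 10 to its nearest gene. Its nearest was Nrp2, a semaphorin receptor subunit (distance 0.83), which had 10.8, 2.32, 26.2 and 57.0 FPKM on days 0, 4, 5 and 6. The noncoding RNA Rian (0.87) and Dlc1 (1.15) came next, and Mapt was in place 4 at 1.21. For Mapt they were the sodium channel gene Scn3a (0.67), the protocadherin gene Pcdh7 (0.68) and Aplp1, of the amyloid precursor family (0.69). For Dcx the nearest was Isl1 (0.57), the motor neuron transcription factor, which had 0.0985, 3.68, 88.0 and 116 FPKM on days 0, 4, 5 and 6. Ftl2-ps (0.70), a ferritin pseudogene whose reads may be shared, and Gm11223 (0.71) followed. Gm11223 (0.31) also led for Stmn3, before Nsg1, an endosomal protein gene of neurons (0.67), and Ctnna2, a neuronal alpha-catenin gene (0.72). Ctnna2 (0.10) was nearest to Stmn4, before Cdk5r1, an activator of Cdk5 (0.27), and the sodium-calcium exchanger gene Slc8a1 (0.28).

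Among the tubulins, Tuba1a was nearest to Rtn1 (0.21), the secretogranin gene Scg3 (0.25) and Cadps, a gene of vesicle release (0.28). These are likenesses on the log2(FPKM + 1) scale and not in fold. Scg3 had 0.0274 FPKM on day 0 and 26.8 on day 6, where Tuba1a had 46.8 and 1512. Tubb2b was nearest to the synaptophysin gene Syp (0.17), Rufy3 (0.20) and Trib2 (0.23). For Tubb2a they were Sez6l2 (0.18), Ggt7 (0.24) and Gm4392 (0.27). Stmn1 was nearest to 5031439G07Rik (0.14), Tmem35a (0.18) and Flywch2 (0.24), and the nearest of the 10, Tubb2a, was only in place 991. Tubb5 had very close neighbours in Pde5a (0.04), Mgrn1 (0.04) and Ndrg3 (0.05), and its nearest of the 10, Stmn1 at 1.33, was in place 6263. Tuba1a and Tubb2b were each other's nearest of the 10, at 0.55.

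Further genes of microtubule biology, in 9 lists that hold none of the 10, were set beside these values. Their counts are to be read against the shares over all genes, which were 19.3% higher and 11.9% lower on day 4 than on day 0, 11.5% and 14.7% on day 5 than on day 4, and 6.52% and 6.19% on day 6 than on day 5. Of the other tubulins measured, 1 of 8 was higher and 3 lower on day 5 than on day 4 (median -0.93). The 1 of 8 is near the share of 11.5% of all genes. The brain isotype gene Tubb4a was the higher one, at 7.11 FPKM on day 5 against 0.752 on day 4. The lower ones were Tuba1b, Tubb4b (42.3 FPKM on day 5 against 98.6 on day 4) and Tubb6 (5.11 FPKM on day 5 against 29.6 on day 4). On day 4 against day 0, 1 of 9 was higher, Tuba1b, and 2 were lower, Tuba4a (0.731 FPKM on day 4 against 18.6 on day 0) and Tuba3a (0.152 FPKM on day 4 against 10.8 on day 0). After rescaling, Tuba1b was no longer higher in that step and Tubb4b was lower. From day 5 to day 6, Tubb6 was the 1 of 8 that was lower.

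Of other microtubule-associated proteins, 7 of 14 were higher and 2 lower on day 5 than on day 4 (median 0.87), beside 11.5% and 14.7% of all genes. Map2, the dendritic relative of tau, was highest in this step (4.98), and the doublecortin-like kinase gene Dclk1 stood at 21.3 FPKM on day 5 against 2.28 on day 4. The lower ones were Map7 and Map1s. Camsap1 was listed at 0 on day 5 and is left out of the steps to and from that day. On day 6 against day 5, 3 of 13 were higher, Map6 (1.43), Dclk1 (1.18) and Map7d2 (1.15), and Map1a (-1.07) was lower, with Camsap3 another higher gene after rescaling. In the first step 5 of 15 were higher, led by Map1b (2.62), and Map7 (-1.12) was lower. Map2 was no longer among the 5 after rescaling.

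All 5 collapsin response mediator genes, whose products carry tubulin dimers and act in axon guidance, were higher on day 4 than on day 0, and 4 were higher again on day 5, without Dpysl5 (-0.15). The extremes of the day 5 step were Crmp1 (3.32) and Dpysl5. On day 6 none of the 5 differed by 2-fold from day 5, with differences from 0.15 (Dpysl4) to 0.87 (Dpysl2). The list medians on the log2 scale were 1.66, 2.24 and 0.56 for the steps to days 4, 5 and 6. Genes of tubulin modification were higher in 6 of 11 cases on day 4, led by Svbp (2.00), and in 5 of 12 on day 5, led by the polyglutamylase gene Ttll7 (1.82), with Ttll4 (-1.18) lower. The shares over all genes were 19.3% and 11.5% higher. Ttll7 (1.02) was the 1 of 13 that was higher on day 6, near the 6.52% of all genes. The medians of the modification genes were 1.30, 0.71 and 0.29 for the 3 steps.

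Of the 8 tubulin folding genes, Tbca (1.06) was higher on day 4 than on day 0, though not after rescaling, and all 8 were within 2-fold in both later steps. The median for day 5 against day 4 was -0.20, with Cct5 lowest (-0.50) and Tbcd highest (0.79). Plus end tracking genes were higher in 3 of 7 cases on day 4, led by Clip3 (2.18), in 3 of 8 on day 5, led by Clip2 (1.78), and in 1 on day 6, Clasp2 (1.51), beside 19.3%, 11.5% and 6.52% of all genes in the 3 steps. After rescaling Clasp2 made it 4 of 8 on day 5, and the medians without rescaling were 0.88, 0.85 and 0.51. Of the kinases of tau and stathmin, counted together with activators of Cdk5, 3 of 11 were higher on day 4, or 2 after rescaling, led by Gsk3a (1.34). This is not far from the 19.3% of all genes, or 14.0% after rescaling. On day 5, 4 of 12 were higher, led by the activator Cdk5r1 (3.38), while Cdk5 itself was within 2-fold (0.18). Cdk1, the mitotic kinase, was lower (-2.49). On day 6, 3 were higher, led by Mapk10 (1.61), and Cdk1 was again lower (-2.39). The kinase medians were 0.86, 0.22 and 0.21.

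Of the severing and depolymerisation genes, Fign (1.54) was higher on day 4 than on day 0. On day 5 Spast, the gene for the microtubule-severing enzyme spastin, was higher (1.06), joined by Katnal1 after rescaling, and Fignl1 (-2.35) and Kif2c (-1.87) were lower. Fignl1 (-1.47) and Kif2c (-1.97) were lower again on day 6, and the medians of the 8 genes were 0.25, -0.39 and -0.06. Of 8 spindle assembly genes, 6 were lower on day 5 (median -1.91), with Prc1 lowest (-2.01), and 5 on day 6 (median -1.99), again with Prc1 lowest (-2.57). Numa1 and Ckap5, a tubulin polymerase also used outside the spindle, were within 2-fold in all 3 steps. Hmmr (-1.10) was the only one of the 8 that differed by 2-fold between day 4 and day 0.

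**Figure D4:**
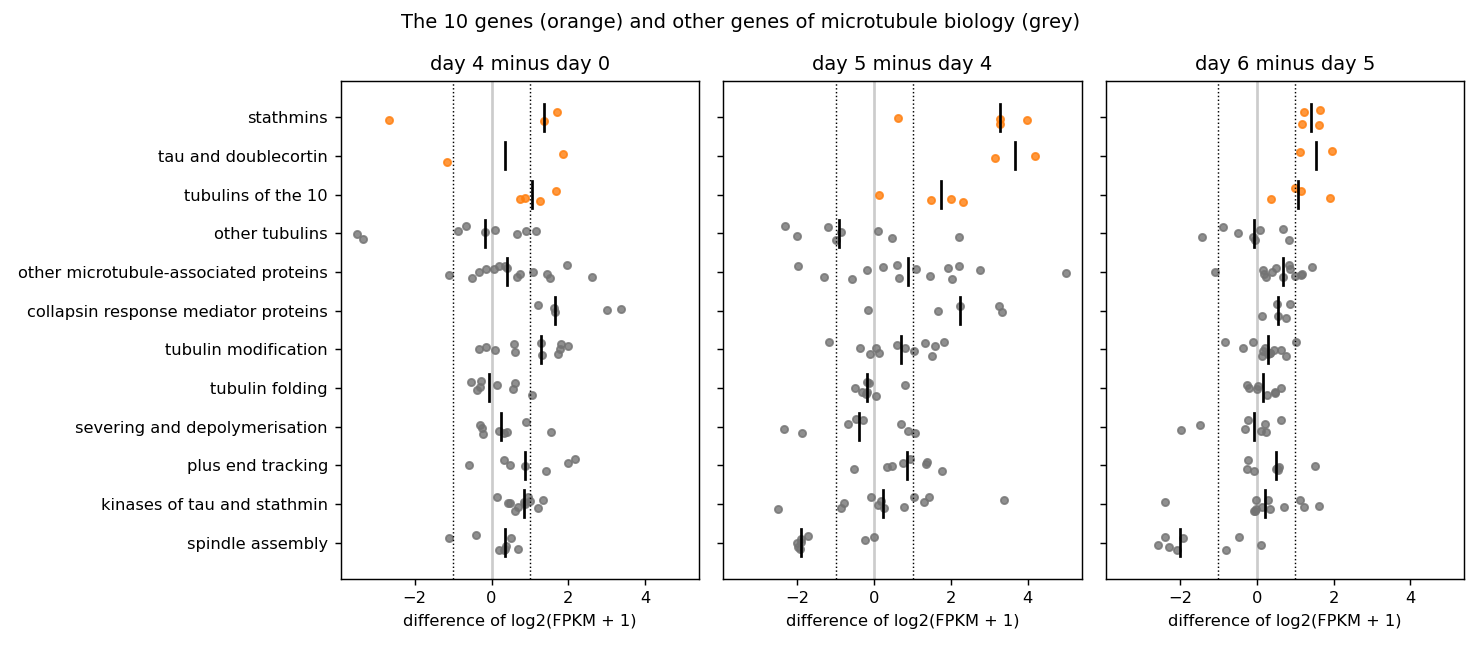
Difference of log2(FPKM + 1) in each step for the 10 genes, in orange, and for the genes of 9 other lists of microtubule biology, in grey. Each point is 1 gene that reached 1 FPKM in the step and was not listed at 0 in it, black bars are list medians and dotted lines mark 2-fold. In the step to day 5 the medians run from 3.66 for tau and doublecortin to -1.91 for spindle assembly.

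Between 10117 and 10472 genes reached 1 FPKM in each library, and the summed markers of the labelled stages were highest in their own libraries. Summed FPKM of 4 ES cell markers was 946 on day 0 and 2.33 or less afterwards, that of 4 progenitor markers was 201, 40.1 and 9.49 on days 4, 5 and 6, and that of 4 motor neuron markers was 10.3, 157 and 156. On day 5, labelled postmitotic, the progenitor markers Olig2 (17.3 FPKM) and Nkx6-1 (17.5) were thus still present. Nkx6-1 was also present on day 6, at 7.78 FPKM. Pax6 and Hes5, the other markers of that list, were far lower on day 5 than on day 4. Pax6 had 3.42 FPKM on day 5 against 61.5 on day 4, and Hes5 had 1.90 against 83.4. The like motor neuron sums of days 6 and 5 hold unlike genes, since Lhx3 had 3.90 FPKM on day 6 against 24.1 on day 5 and Isl1 had 116 on day 6 against 88.0 on day 5. Since the 10 genes are used by many neurons, markers of other cells are given beside them. The 9 markers of other neurons summed to 5.23 FPKM on day 5 and 7.21 on day 6, with Sim1 (3.24 on day 6) highest. The 6 glial markers summed to 12.6 FPKM on day 5 and 11.0 on day 6. Of these, Mbp stood at 11.5 on day 5 and 9.90 on day 6 and no other reached 1 FPKM on these days. Aqp4 was listed at 0 on days 0, 4 and 5 and Gfap on day 6. The 5 muscle and mesoderm markers summed to 1.69 or less from day 4 on, with Myod1 listed at 0 in all 4 libraries. The 5 cell cycle markers summed to 540, 106 and 17.5 FPKM on days 4, 5 and 6, and were thus still present on day 5. The part of other cells in the results was not tested.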

How the data were processed

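Ribosome-depleted total RNA was sequenced, per the labels, in 1 library per day. The authors deposited FPKM per gene ID. Their aligner and quantifier are not given in the sources used here. STAR, Bowtie 0.12.7, HOMER 4.7.2, MACS and build mm9 are named without a role in the submitters' processing notes. Of 37450 IDs, 32798 were found in a table of current names, which were used in place of older symbols, and 245 names had more than 1 row, of which the row with the highest mean was kept. Read numbers per library are unknown. The most common ratio of very low FPKM may reflect what 1 read was worth, which could not be checked. It was 0.500 for day 0 over day 4 (3.04% of 527 genes), 1.03 for day 4 over day 5 (7.13% of 547) and 1.34 for day 5 over day 6 (8.08% of 631). Few genes held each ratio, so these are weak guides to depth.

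Differences of log2(FPKM + 1) were computed with Python 3.11.15, pandas 2.3.3 and NumPy 2.4.6. They were called at 2-fold where at least 1 of the libraries compared reached 1 FPKM. The computation was tested on simulated data, with genes well above 1 FPKM, changes larger than 2-fold and an assumed noise. This checks the code and not the calls of low genes or of differences near 2-fold. With 1 library per day there is no test. Alternatives were a pseudocount of 0.1, rescaling to a common median ratio, no filter, and summed repeated symbols. The named genes are the 10, the 3 nearest genes of each, and counts with the extremes of each fixed list. Other list genes named in the text were chosen after their values were seen. The 10 genes and all lists were chosen with earlier results of these data known. The maps of chromatin and binding were not used here, since their positions are mm9 and the gene positions at hand are GRCm38.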

Additional observations from a re-analysis of the deposited data

How the results depend on the processing

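The number of genes called was 7 for day 4 against day 0, where 9 were measured. It was 8 of 10 for day 5 against day 4, 8 of 10 for day 6 against day 5 and 10 of 10 for day 6 against day 0. These numbers called were unchanged with a pseudocount of 0.1 FPKM. Dropping the filter could not change them, since a gene under 1 FPKM in both libraries cannot differ by 2-fold in FPKM + 1. Summing repeated symbols could not change them either, since each of the 10 genes has 1 row. Rescaling gave 9 for day 6 against day 5 by adding Tuba1a, and the other counts as before. Summing near-identical tubulins, an alternative chosen after seeing the data, gave 8 for day 4 against day 0. Tubb2a and Tubb2b then both held their summed value (1.19 on the log2 scale), which was counted for each of them. The added call is thus the same value counted again and not a further gene. No gene of the 10 changed direction among called differences under these 5 alternatives. The shares over all genes did move. The pseudocount of 0.1 gave 1114 higher and 1070 lower for day 6 against day 5, beside 725 and 688. For day 4 against day 0 it gave 25.9% higher and 15.0% lower, beside 19.3% and 11.9%. With no filter the shares of that step were 6.04% and 3.7% of 36612 genes. The median over the 10 genes for day 5 against day 4 was 2.87 after rescaling, beside 2.73. No paired analysis was possible because each day has 1 RNA library and the results come from no test. Leaving out a replicate was not possible for the same reason. Values under 1 FPKM, as for Stmn4 on days 0 and 4, Mapt on day 4 and Dcx on day 0, are limited by a depth that is not known, and the differences that rest on them depend on the pseudocount.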
